A study of Homo sapiens with 12 samples.

Results

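Integrins are the receptors by which cells hold on to the matrix around them. The 10 subunits described here are the alpha chains ITGA2, ITGA3, ITGA5, ITGA6 and ITGAV and the beta chains ITGB1, ITGB3, ITGB4, ITGB5 and ITGB6, which are those usually listed for epithelial cells. They were found by gene symbol among the 61541 genes of the count table. All 10 matched 1 row each, and all 10 passed the filter on low counts that left 16768 genes for testing.

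The data are RNA sequencing of 12 libraries labelled A549, a line established from a lung adenocarcinoma, taken 14 days after transduction, in 4 groups of 3. Cells labelled control carried the non-targeting guide gNTC1 (genotype NTC KO). Knockout cells were made by Cas9 directed at TYMS (TS-KO). TYMS encodes the enzyme thymidylate synthase, whose product cells need to copy DNA. Both were grown alone and in co-culture, with no drug treatment. The series text gives parental A549 as the partner of the co-cultured knockout and says that proliferation was restored there. The partner of the co-cultured control is not named, and the labels do not say whether partners were separated before RNA was taken, so a co-culture library may hold RNA of both. Only 1 control guide is labelled, and nothing says that the 3 libraries of a group came from separate cultures, so p-values measure the spread between these libraries only. In bulk RNA, fewer cells that express a gene and less of its RNA per cell cannot be told apart.

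An integrin is a pair of 1 alpha and 1 beta chain that crosses the cell membrane. The outer parts bind matrix proteins, and the short inner tails bind talin and kindlin, which link the receptor to actin. The beta chain ITGB1 pairs with ITGA2 to bind collagen, with ITGA3 or ITGA6 to bind laminins and with ITGA5 to bind fibronectin. ITGAV pairs with ITGB1, ITGB3, ITGB5 or ITGB6 and reads the RGD sequence of vitronectin, fibronectin, osteopontin and latent TGF-beta. ITGB4 pairs with ITGA6 alone and anchors epithelial cells to the basement membrane through hemidesmosomes, which tie to keratin rather than actin.

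The alpha chains share a conserved stretch just inside the membrane, by which the alpha and beta tails are held together. The 30 coding bases around it are shown because it is the element by which the 5 alpha chains can be lined up. Capitals mark the 5 codons of the stretch, of which the first encodes another residue in ITGA3 than in the other alpha chains. Each run is read 5′ to 3′ on the gene's strand from GENCODE 29 on GRCh38, and each is interrupted by an intron in the genome.
ITGA2, chr5:53090060-53090545, plus strand: aagctcGGCTTCTTCAAAAGAaaatatgaa
ITGA3, chr17:50087867-50089136, plus strand: aagtgtGACTTCTTTAAGCGGacccgctat
ITGA5, chr12:54396350-54397367, minus strand: aagcttGGATTCTTCAAACGCtccctccca
ITGA6, chr2:172498098-172504117, plus strand: aagtgtGGATTCTTTAAACGCtctaggtac
ITGAV, chr2:186676933-186677223, plus strand: aggatgGGCTTTTTTAAACGGgtccggcca
The windows held from 33.3% (ITGA2) to 53.3% (ITGAV) G and C, which was not the order of the whole coding sequences. Over these, G and C made up 60.1% of ITGA3 and 58.7% of ITGA5, against 42.2% of ITGA2, 44.7% of ITGA6 and 44.9% of ITGAV. The gap was wider at the third base of the codons, where it was 76.0% in ITGA3 and 67.9% in ITGA5 but 39.0% in ITGA2, 43.0% in ITGA6 and 40.6% in ITGAV.

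The promoters of the ITGAV partners ITGB6 and ITGB5 are shown because ITGB6 had the lowest level per kilobase in every group and ITGB5 was among the 3 highest in each. Both sequences end just before the annotated gene body and come from RefSeq on GRCh38.p14, which held promoters of 7 of the 10 members. Capitals mark the E-box CACCTG in ITGB6 and the GC box GGGCGG, on either strand, in ITGB5.
ITGB6, chr2:160200314-160200522, minus strand: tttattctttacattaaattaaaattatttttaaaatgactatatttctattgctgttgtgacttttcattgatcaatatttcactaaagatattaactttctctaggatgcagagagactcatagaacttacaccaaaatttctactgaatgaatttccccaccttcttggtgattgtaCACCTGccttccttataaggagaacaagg
ITGB5, chr3:124901419-124901668, minus strand: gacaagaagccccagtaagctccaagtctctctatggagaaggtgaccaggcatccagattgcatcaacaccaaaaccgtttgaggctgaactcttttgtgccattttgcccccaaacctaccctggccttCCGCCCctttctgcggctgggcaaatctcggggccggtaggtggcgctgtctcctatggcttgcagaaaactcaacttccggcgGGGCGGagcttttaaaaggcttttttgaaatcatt
In windows of 250 bases before the start, CACCTG on either strand was present in 17.51% of 27305 promoters and GGGCGG in 42.31%. G and C made up 30.0% of the ITGB6 window and 52.8% of that of ITGB5.

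On GRCh38 in GENCODE 29, the genes the results turn on lie on several chromosomes. ITGAV (ENSG00000138448) is at chr2:186590065-186680901 on the plus strand, ITGB6 (ENSG00000115221) at chr2:160099666-160200313 on the minus strand and ITGB1 (ENSG00000150093) at chr10:32900319-33005792 on the minus strand. ITGB3 (ENSG00000259207) is at chr17:47253846-47311816 and ITGB4 (ENSG00000132470) at chr17:75721328-75757818, both on the plus strand, with ITGA3 (ENSG00000005884) between them at chr17:50055968-50090481. ITGA5 (ENSG00000161638) is at chr12:54395261-54419460 on the minus strand. The files count reads over whole genes, so no value here belongs to a single exon or isoform. ITGB6 shares 966 bases of exon with another annotated gene on its strand, and its counts are uncertain to that extent.

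Library totals ran from 14921371 to 35723762 counts. TYMS, the targeted gene, was at 90.3 to 101 CPM (counts relative to the TMM-scaled library total) in the 6 labelled controls. It was at 20.3 to 21.4 CPM in the lone knockouts and at 10.7 to 11.4 CPM in the co-cultured knockouts. Genes deleted in the line went against the labels of the controls. A549 is known to lack the CDKN2A and MTAP genes. The labelled controls held CDKN2A at 54.7 to 116 CPM and MTAP at 43.8 to 79.5 CPM, while the knockouts held at most 0.119 and 0.647 CPM. A second set was 4 genes chosen as high in A549, namely AKR1B10, AKR1C1, AKR1C2 and NQO1. Their sum was high in all libraries, at 2116 to 2801 CPM in the labelled controls and 4834 to 6155 CPM in the knockouts. The epithelial adhesion gene EPCAM was at 94.4 to 119 CPM in the labelled controls and at most 0.913 CPM in the knockouts. Keratin KRT8, which marks epithelial cells in general, was at 2364 CPM or more in every library. The epithelial markers did not all go the same way. KRT8, KRT19 and CDH1 were lower in all knockouts than in all labelled controls, and KRT18 overlapped. KRT7 was higher, at 1213 to 2531 CPM in the labelled controls and 4396 to 7409 CPM in the knockouts. The summed epithelial markers ran from 8358 to 17778 CPM over all libraries, and the summed fibroblast markers from 12.2 to 24.5 CPM. Differences between knockout and labelled control below therefore cannot be told apart from a difference between the cells that the libraries hold.

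Per kilobase of exon, the laminin receptor chain ITGA3 had the highest level in every group, at 77.4 ± 13.5 CPM per kb in lone labelled controls (SD, n = 3) and 109 ± 6.89 in lone knockouts. In the lone controls ITGB4 (61.6 ± 11.1) and ITGB5 (60.0 ± 9.31) followed, then ITGB1 (22.6 ± 9.88), ITGA5 (19.8 ± 3.23), ITGA6 (3.23 ± 1.08), ITGA2 (1.98 ± 0.690) and ITGAV (1.62 ± 0.863). ITGB3, at 0.194 ± 0.0188, and ITGB6, at 0.0220 ± 0.0201, came last. The libraries of 5 of the 9 neighbouring pairs overlapped: ITGA3 with ITGB4, ITGB4 with ITGB5, ITGB1 with ITGA5, ITGA6 with ITGA2, and ITGA2 with ITGAV. In lone knockouts ITGB1 stood second at 76.1 ± 20.2 CPM per kb, overlapping ITGB5 at 67.3 ± 5.02, and ITGAV followed ITGB4 at 12.3 ± 3.46, overlapping ITGA5 at 11.4 ± 0.656. In co-cultured knockouts ITGB3 had moved ahead of ITGAV, with 5.88 ± 0.439 against 4.85 ± 3.44 CPM per kb, but the libraries of that pair overlapped.

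**Figure D1:**
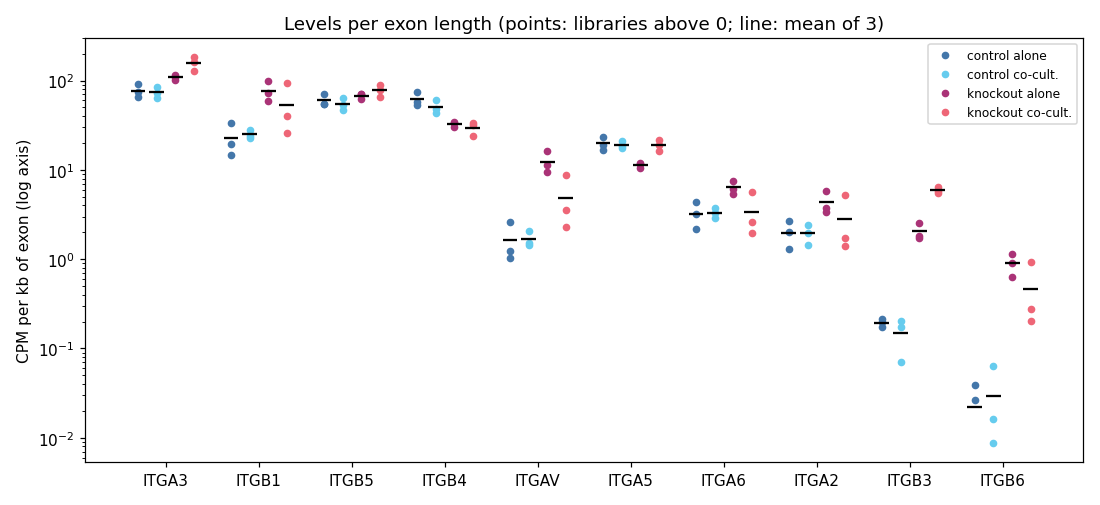
Level of each integrin subunit per kilobase of exon (CPM per kb, log axis) in the 4 groups, with each library above 0 as a point and the mean of 3 libraries as a line. ITGA3 is highest in every group, and ITGB6 and ITGB3 are lowest in the labelled controls.

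The first comparison asked how lone knockout cells differed from lone labelled controls. ITGA2, ITGA3, ITGA6, ITGAV, ITGB1, ITGB3 and ITGB6 rose, with ITGAV, ITGB3 and ITGB6 furthest, and ITGA5 and ITGB4 fell. In all, 9 of 10 members passed the test (edgeR adjusted p under 0.05), 7 higher and 2 lower, where 56.6% of all genes tested passed, 28.0% higher and 28.6% lower. The median member log2 fold change was 1.05, against 0.09 over all genes.

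ITGAV, the alpha chain of the RGD receptors, was at 21.4, 10.1 and 8.42 CPM in the lone controls and at 133, 92.7 and 78.2 CPM in the lone knockouts. Every knockout library lay above every control, with a log2 difference of 2.93 (SE 0.48, edgeR adjusted p = 0.000204). Its partner ITGB3, known in endothelium, platelets and invasive tumour cells, was near the limit of detection in the controls at 0.930, 0.862 and 0.765 CPM. It was at 11.3, 8.07 and 7.67 CPM in the knockouts, a log2 difference of 3.40 (SE 0.32, edgeR adjusted p = 1.77e-06). ITGB3 shares 2266 bases of exon with another annotated gene on its strand, so reads there may have been split or dropped by the counting.

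ITGB6, an epithelial chain that with ITGAV activates latent TGF-beta, had 2, 3 and 0 counts in the lone controls and 128, 85 and 48 counts in the lone knockouts. These were 0.124, 0.185 and 0 CPM against 5.42, 4.23 and 2.92 CPM. The pooled level was 44.0 times higher in the knockouts, with an exact 95% interval for counting error alone of 18.6 to 137 (edgeR adjusted p = 0.000138). The groups did not overlap, but the size of the difference is poorly known because the controls hold so few reads. ITGB5, the abundant vitronectin receptor chain, overlapped between the groups, at 348, 357 and 456 CPM against 396, 451 and 454 CPM. Its log2 difference was 0.16 (SE 0.17, edgeR adjusted p = 0.418).

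ITGB1, the partner of most alpha chains, was at 203, 117 and 88.5 CPM in the lone controls and at 590, 431 and 351 CPM in the lone knockouts. All knockouts were above all controls, by 1.75 on the log2 scale (SE 0.42, edgeR adjusted p = 0.00315). The collagen chain ITGA2 ranged from 10.2 to 21.1 CPM in the controls and from 26.6 to 46.4 CPM in the knockouts, by 1.13 (SE 0.45, edgeR adjusted p = 0.0469). The laminin chain ITGA6 ranged from 14.2 to 28.2 CPM and from 35.0 to 49.5 CPM, by 0.98 (SE 0.35, edgeR adjusted p = 0.0277). ITGA3, the other laminin chain, was at 638, 737 and 900 CPM against 993, 1086 and 1124 CPM, by 0.49 (SE 0.18, edgeR adjusted p = 0.0334). The groups did not overlap for ITGB1, ITGA2, ITGA6 or ITGA3, and the share of all genes likewise apart was not counted. The calls of ITGA2 and ITGA3 are near the threshold, being kept in 6 and 7 of 14 alternative settings and library omissions. That of ITGA6 was kept in 10 of 14, but in only 2 of the 6 library omissions. ITGB4 was called in 12 of 14, and ITGA5, ITGAV, ITGB1, ITGB3 and ITGB6 in 14 of 14.

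The fibronectin chain ITGA5 was lower in the lone knockouts, at 80.4, 88.6 and 89.3 CPM, than in the lone controls, at 128, 145 and 176 CPM. The difference was -0.80 (SE 0.15, edgeR adjusted p = 0.000659). ITGB4, the hemidesmosome chain, was at 357, 392 and 501 CPM in the controls and at 205, 233 and 225 CPM in the knockouts, a difference of -0.92 (SE 0.18, edgeR adjusted p = 0.000832). Both pairs of groups were apart. Offsets were also fitted that remove the trend of counts with transcript GC content in each library, taken against the mean of all 12 libraries. They therefore also take out any difference between groups that follows GC. Over all genes the Spearman correlation of this comparison's log2 fold change with GC went from -0.386 to 0.018. With the offsets ITGA5 was still lower (-0.55), but the ITGB4 difference ended at 0.01 (edgeR adjusted p = 0.961). With those offsets ITGB5 was called higher (0.40, edgeR adjusted p = 0.00377), and ITGA3 rose by 1.26, slightly more than ITGB1 (1.21).

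**Figure D2:**
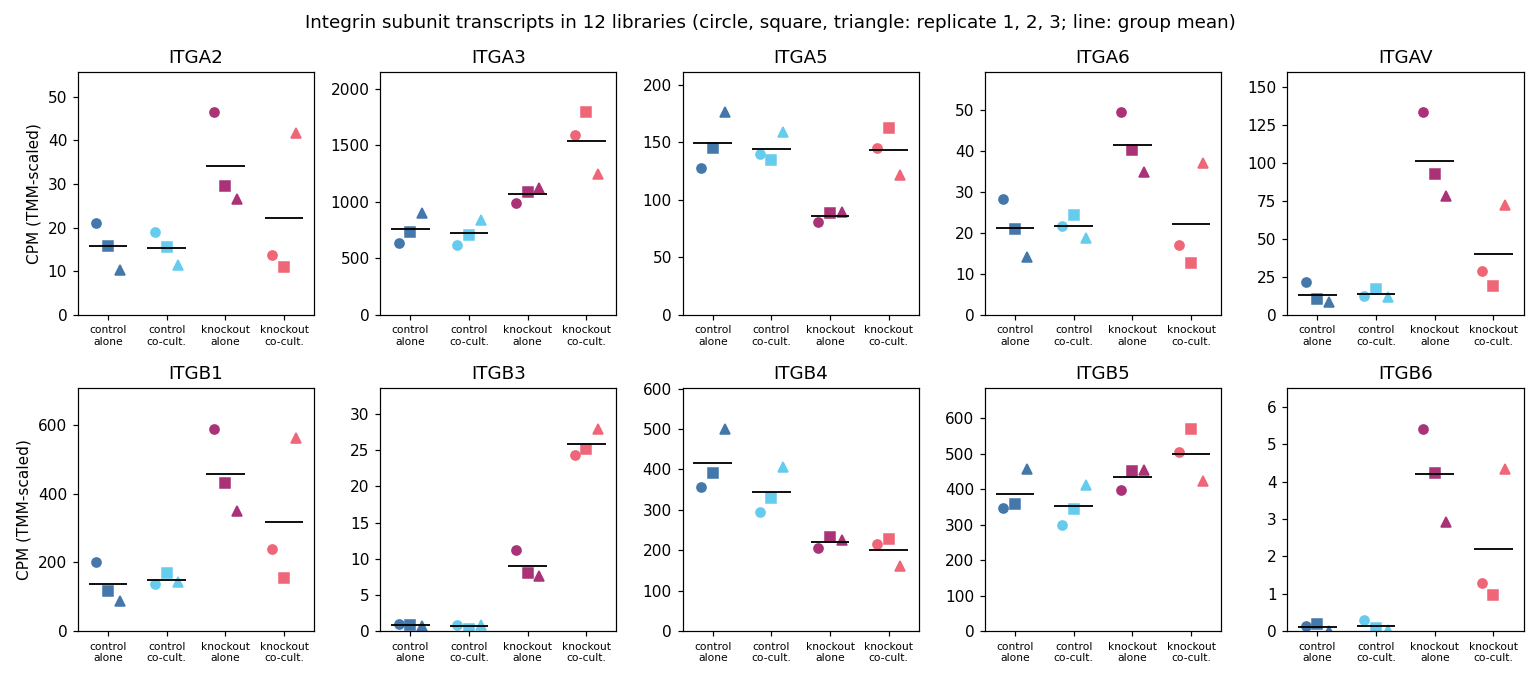
TMM-scaled CPM (linear axis from 0) of each integrin subunit in the 12 libraries, by group, with circle, square and triangle for replicates 1, 2 and 3 and a line for the group mean. All knockout libraries lie above all labelled controls for ITGB3 and ITGB6, as do the lone knockouts for ITGAV, and co-cultured knockout replicate 3 lies apart from the other co-cultured knockouts for ITGA2, ITGA6, ITGAV, ITGB1 and ITGB6.

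The second comparison asked how co-cultured knockouts differed from lone knockouts. ITGB3 and ITGA5 rose, and no member fell by the test. These 2 of 10 members passed, where 11.4% of all genes did, 5.97% higher and 5.40% lower. The median member difference was -0.33, against 0.01 over all genes.

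ITGB3 was at 24.3, 25.2 and 28.0 CPM in the co-cultured knockouts, above all 3 lone knockouts (11.3, 8.07 and 7.67 CPM). The log2 difference was 1.52 (SE 0.26, edgeR adjusted p = 0.00387), and it was called in 14 of 14 alternatives. ITGA5 was at 145, 163 and 122 CPM, again above all 3 lone knockouts, by 0.73 (SE 0.15, edgeR adjusted p = 0.0103). These values overlapped those of the lone labelled controls (128 to 176 CPM). Its call was lost when lone knockout replicate 1 was left out (edgeR adjusted p = 0.0561). Then 1 member passed, as did 603 of the 17224 genes tested.

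ITGAV was at 28.8, 18.6 and 71.9 CPM in the co-cultured knockouts, all below the lone knockouts (78.2 to 133 CPM), by 1.35 on the log2 scale with an edgeR adjusted p of 0.0671 that missed the threshold. ITGA3, at 1592, 1793 and 1244 CPM, lay above all lone knockouts by 0.53, also short of it (edgeR adjusted p = 0.0744). Replicate 3 lay apart from the other replicates in both. ITGA2 (13.8, 11.0 and 41.7 CPM), ITGA6 (17.1, 12.7 and 37.1), ITGB1 (239, 155 and 562) and ITGB6 (1.29, 0.954 and 4.33) overlapped the lone knockouts, with log2 differences of -0.63, -0.90, -0.52 and -0.95 and edgeR adjusted p from 0.102 to 0.405. For all of these genes replicate 3 was the high one. ITGB4 (216, 227 and 161 CPM) and ITGB5 (505, 570 and 423 CPM) differed from the lone knockouts by -0.13 and 0.20 (SE 0.18 and 0.17), which did not pass.

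The members divided by base composition in how they varied between libraries of 1 group. ITGAV, ITGB1, ITGB6, ITGA2 and ITGA6 have transcripts of 38.3% to 42.9% GC, and ITGB3, ITGB5, ITGA5, ITGA3 and ITGB4 of 52.3% to 63.7% GC. In co-cultured knockout replicate 3 the 5 members of low GC all lay above their group mean, by 1.09 on average (log2), and in replicate 2 all 5 lay below it, by -0.791. Over all genes with a GC value, the deviation of replicate 3 from its group mean had a Spearman correlation with GC content of -0.757, and that of replicate 2 of 0.736. Among the labelled controls, the low-GC members averaged 0.643 above the group mean in lone replicate 1 and -0.844 in replicate 3. A small constant was added to CPM before the logarithm, and ITGB6 had 0 counts in that replicate 3. The -0.844 therefore leans heavily on ITGB6, although all 5 members lay below the group mean there. The 5 low-GC members were higher in lone knockouts than in lone controls and lower in co-cultured than in lone knockouts, all 5 in both comparisons. Over all genes the log2 fold changes also followed GC. Their Spearman correlation with it was -0.386 in the first comparison and 0.435 in the second, so the pattern is not particular to the members.

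**Figure D3:**
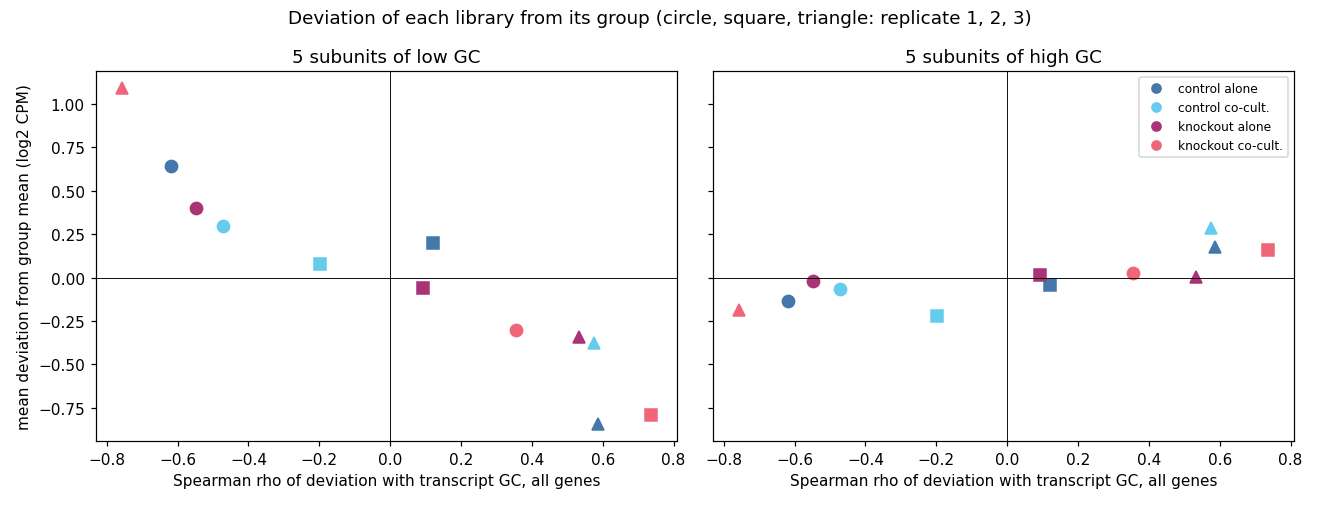
Deviation of each library's log2 CPM from its group mean (y axis), averaged over the 5 integrin subunits of low GC (left) and the 5 of high GC (right), against the Spearman correlation of the library's deviation with transcript GC over all genes (x axis). Co-cultured knockout replicate 3 stands highest for the low-GC subunits, at 1.09, and replicate 2 is at -0.791. The left point of lone labelled control replicate 3 is pulled down by ITGB6, which had 0 counts there.

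When replicate 3 of the co-cultured knockout was left out, 8 members passed against the lone knockouts, and 5680 of the 17024 genes then tested did. ITGAV fell by 2.10 and ITGB6 by 1.92, ITGA6 by 1.48, ITGA2 by 1.47 and ITGB1 by 1.21, while ITGA3 rose by 0.67. With all libraries and GC offsets, 6 members and 4766 of 16768 genes passed. These were ITGA3 (0.28), ITGA5 (0.55), ITGA6 (-0.63), ITGAV (-0.94), ITGB3 (1.37) and ITGB4 (-0.38). ITGB3, ITGA5 and ITGA3 higher and ITGAV and ITGA6 lower were thus called under both, with edgeR adjusted p of 0.00263 for ITGAV with offsets and 0.000621 without that library. Of these 2 settings, ITGB1, ITGB6 and ITGA2 were called only without the library, and ITGB4 only with offsets. Both settings called more genes than any other alternative. Over all 14 alternatives ITGAV and ITGA3 were called in 6 each and ITGA6 in 5, and each of the 3 in only 1 of the 6 library omissions.

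**Figure D4:**
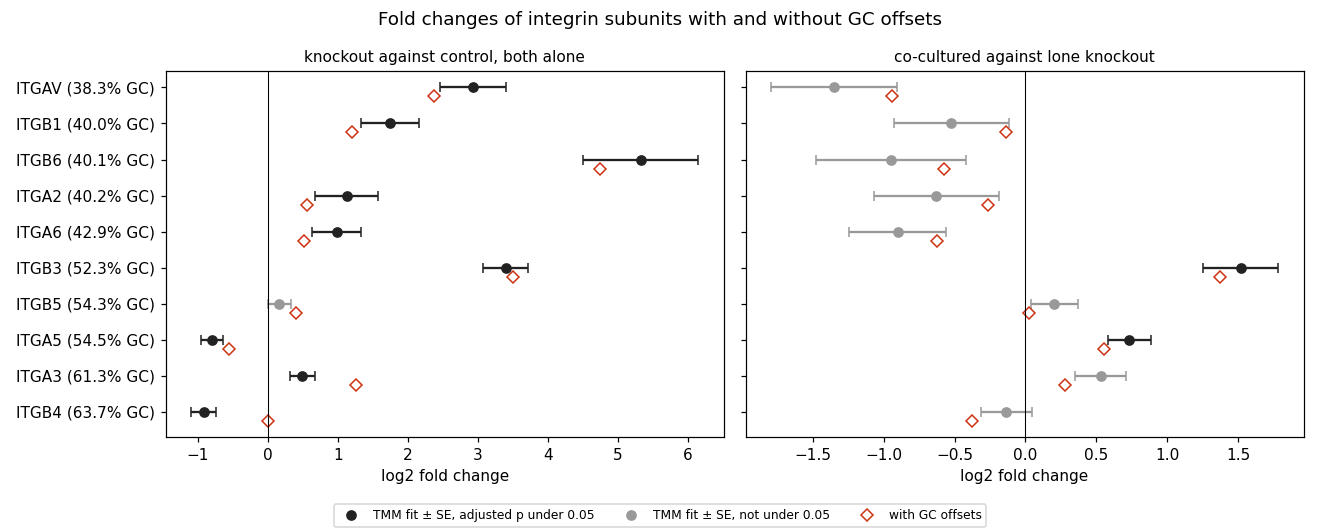
Log2 fold change of each integrin subunit, ordered by transcript GC content, for knockout against labelled control grown alone (left) and co-cultured against lone knockout (right). Points are the TMM fit with SE bars, and open diamonds the fit with GC offsets, which moves ITGB4 from -0.92 to 0.01 in the left panel.

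Ratios between partner chains were set per kilobase with 0.5 count added. Within groups, the 3 ratios whose chains differ by 2.91 points of GC or less had an SD of 0.035 to 0.41 (log2), and the 3 that differ by 14.5 points or more had an SD of 0.25 to 1.22, leaving out pairs with the scarce ITGB3 or ITGB6. The log2 ratio of ITGAV to ITGB1 was -3.84 ± 0.15 in lone controls (SD, n = 3), -3.91 ± 0.14 in co-cultured controls, -2.63 ± 0.035 in lone knockouts and -3.47 ± 0.049 in co-cultured knockouts. Thus ITGAV was at 0.158 to 0.165 of the ITGB1 level in the 3 lone knockouts and at 0.0883 to 0.0937 in the co-cultured ones, with no overlap. The co-culture difference was -0.85 and the knockout difference 1.21 alone and 0.44 in co-culture, each with an exact permutation p of 0.1, the smallest that 3 against 3 libraries can give. Between co-cultured and lone controls it was -0.07 (exact permutation p = 0.6).

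ITGB3 relative to ITGB5, the chains that compete for ITGAV at the vitronectin receptor, had a log2 ratio of -8.22 ± 0.35 in lone controls, -8.58 ± 0.80 in co-cultured controls, -5.05 ± 0.41 in lone knockouts and -3.71 ± 0.31 in co-cultured knockouts. On the linear scale it was 0.0249 to 0.0418 in the lone knockouts and 0.0649 to 0.0971 in co-culture, so ITGB5 remained the larger by far. The knockout differences of 3.17 alone and 4.87 in co-culture and the co-culture difference of 1.34 had no overlap (exact permutation p = 0.1 each). ITGB1 relative to ITGA6 was higher by 0.78 in lone knockouts than in lone controls and by 0.33 in co-cultured than in lone knockouts (exact permutation p = 0.1 each). ITGB4 relative to ITGA6, whose GC contents are far apart, spread more widely, with an SD of 1.06 in the co-cultured knockouts. It was 1.92 lower on the log2 scale in lone knockouts than in lone controls (exact permutation p = 0.1).

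**Figure D5:**
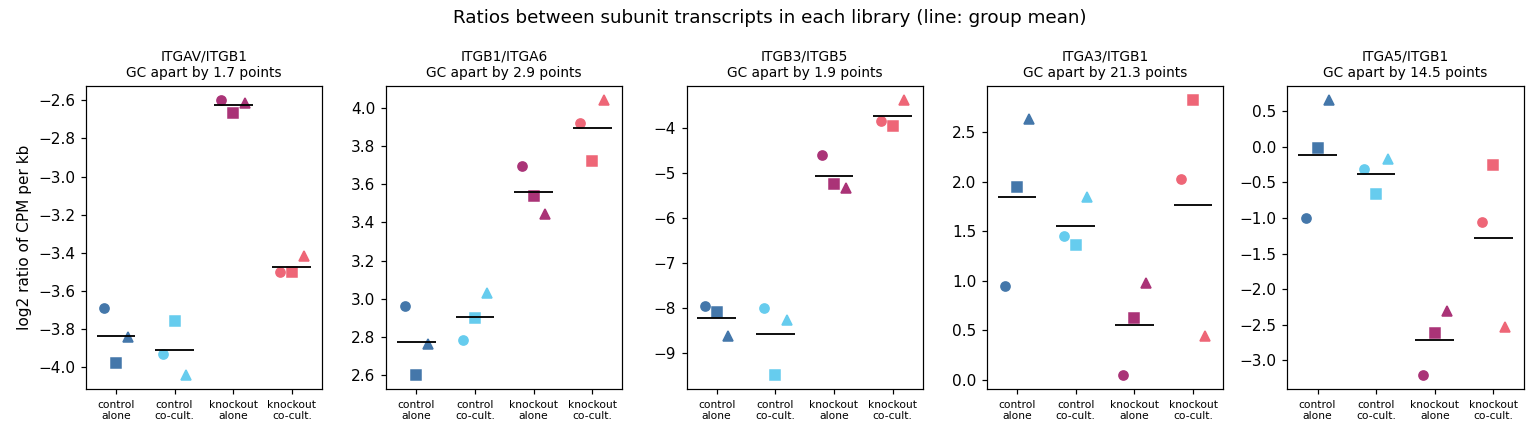
Log2 ratios of per-kilobase levels between integrin partner chains in each library (points), by group, with a line for the mean and the GC gap of each pair above its panel. ITGAV relative to ITGB1 stays within a narrow band in each group and differs between lone and co-cultured knockouts, at -2.63 and -3.47.

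The third comparison set co-cultured knockouts against co-cultured labelled controls. It shares the co-cultured knockouts with the second, so its values are given side by side and are not a repeat of it. ITGA3, ITGAV, ITGB1, ITGB3, ITGB5 and ITGB6 were higher and ITGB4 lower, which makes 7 of 10 members, where 49.4% of all genes passed, 24.1% higher and 25.3% lower. The median member difference was 0.81, against -0.02 over all genes.

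ITGB3 differed most by the fit, by 5.31 (SE 0.33, edgeR adjusted p = 5.31e-08), with controls at 0.772, 0.306 and 0.897 CPM. ITGB6 had 5, 2 and 1 counts in the controls, and its pooled level was 18.0 times higher in the knockouts (exact 95% counting interval 8.93 to 42.3, edgeR adjusted p = 0.000731). Knockout replicate 3 held 116 of the knockout counts, the others 30 and 32, and without it the fitted log2 difference went from 4.11 to 3.15 and stayed called. ITGA3 was at 618, 708 and 837 CPM in the controls, below all 3 knockouts, by 1.10 (SE 0.18, edgeR adjusted p = 0.000276).

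ITGAV was at 12.3, 17.0 and 11.8 CPM in the controls and higher in all knockouts, by 1.53 (SE 0.45, edgeR adjusted p = 0.0132). ITGB1 was at 138, 168 and 142 CPM and overlapped knockout replicate 2, with a difference of 1.09 (SE 0.41, edgeR adjusted p = 0.0413). Without knockout replicate 3 both calls were lost, ITGAV at 0.79 (edgeR adjusted p = 0.0572) and ITGB1 at 0.40 (edgeR adjusted p = 0.272). ITGB4 was at 295, 328 and 407 CPM in the controls and lower in all knockouts, by -0.77 (SE 0.18, edgeR adjusted p = 0.00310). ITGB5 was at 300, 345 and 411 CPM and higher in all knockouts, by 0.51 (edgeR adjusted p = 0.0232). That call was kept in 9 of 14 alternatives, and in 2 of the 6 library omissions among them.

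ITGA5 was at 140, 135 and 159 CPM in the co-cultured controls and differed from the co-cultured knockouts by -0.01 (SE 0.15), while ITGA6 differed by 0.04 (SE 0.34) and ITGA2 by 0.53 (SE 0.44), none of which passed. These 3 genes did pass between the lone cultures, but passing in 1 comparison and not another does not show a difference between them, which the interaction below tests.

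No member was called between co-cultured and lone labelled controls. Of all genes tested 0% were called by edgeR, and DESeq2 called none either. At an unadjusted p under 0.05 there were 0 members and 540 genes of 16768. Member differences ran from -0.39 for ITGB3 to 0.28 for ITGB6, with a median of -0.04 against -0.01 over all genes. The interaction tests whether co-culture shifted knockouts and controls by unlike amounts. It called 0 members, where it called 1.80% of all genes, 1.51% in the positive direction and 0.286% in the negative. At an unadjusted p under 0.05 there were 4 members, ITGA3, ITGA5, ITGAV and ITGB3, and 3135 genes of 16768. DESeq2 called 2 members, ITGA5 and ITGB3, and 890 of the 38159 genes with any count, where edgeR called 301. ITGB3 came closest in the fit (1.91, SE 0.45, edgeR adjusted p = 0.0517), followed by ITGA5 (0.79, edgeR adjusted p = 0.0915). Next were ITGA3 (0.60, edgeR adjusted p = 0.238) and ITGAV (-1.40, edgeR adjusted p = 0.261). With GC offsets ITGB3, ITGA5 and ITGAV were called, at 1.78, 0.57 and -1.01 (edgeR adjusted p = 0.0201, 0.0119 and 0.0411), as were 1411 of 16768 genes. ITGA3 was not called with them (0.17, edgeR adjusted p = 0.387). Without co-cultured knockout replicate 3, 7 members and 3623 of 17024 genes were called. The median interaction of the members was -0.22, against 0.01 over all genes. All 5 low-GC members had a negative interaction and all 5 high-GC members a positive one. Over all genes the Spearman correlation of the interaction with GC was 0.533.

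Of 16 other integrin chains, 11 were tested, and 5 were higher and 4 lower in lone knockouts than in lone labelled controls. Over all genes 28.0% were higher and 28.6% lower in that comparison. ITGA11, a collagen chain known from fibroblasts, rose by 4.96 to 48.6 CPM in the lone knockouts (SE 0.31, edgeR adjusted p = 4.30e-08) and fell by 2.09 to 11.4 CPM in co-culture (SE 0.26, edgeR adjusted p = 0.000359). ITGA1, also a collagen chain, rose by 4.41 from 0.235 to 5.13 CPM (edgeR adjusted p = 8.00e-06), and ITGA7, a laminin chain of muscle, fell by 1.59 (edgeR adjusted p = 6.62e-05). The leukocyte chain ITGAX rose in co-culture, from 3.17 to 8.65 CPM (1.45, edgeR adjusted p = 0.00366). Summed blood markers did not exceed 0.434 CPM in any library. The median of these chains was -0.06 alone and -0.10 for co-culture of knockouts.

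Ligands of integrins were mostly higher in lone knockouts, with 17 higher and 3 lower of 22 tested (24 listed), a median of 1.88. Over all genes 28.0% were higher and 28.6% lower. SPP1, which encodes osteopontin, a ligand of ITGAV pairs, was at 995 CPM against 19.2 CPM in controls (5.70, SE 0.37, edgeR adjusted p = 6.48e-08). FBN1, the RGD-bearing fibrillin, rose by 4.55 and LAMA3, a chain of the laminin bound by ITGA3 and ITGA6, by 3.44 (edgeR adjusted p = 6.27e-08 and 4.42e-07). The 3 lower ligands, named after their values were seen, were LAMB3, another chain of that laminin (-2.25, from 83.3 to 17.6 CPM, edgeR adjusted p = 2.46e-07), NPNT (-3.98) and TGFB1 (-0.62). In co-cultured knockouts 2 ligands rose and 7 fell, where 5.97% of all genes rose and 5.40% fell. LAMB3 rose from 17.6 to 71.4 CPM (2.03, edgeR adjusted p = 2.40e-05), and TNC, tenascin-C, rose by 1.32 (edgeR adjusted p = 0.00242). FBN1 fell by 1.51 (edgeR adjusted p = 0.00277). The ligand median there was -0.11.

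Among 30 adaptor genes that link integrin tails to actin or signalling, 20 were higher and 2 lower in lone knockouts, with a median of 0.68. Over all genes the shares were 28.0% and 28.6%, and for co-culture of knockouts 5.97% higher and 5.40% lower. APBB1IP, which brings talin to the membrane, rose by 3.50, TNS1 (tensin) by 2.89 and vinculin, VCL, by 1.78 (edgeR adjusted p = 2.67e-08, 8.94e-09 and 1.12e-06). In co-culture 1 rose and 6 fell, among them TNS1, which fell by 1.23 (edgeR adjusted p = 0.000219), the kinase PTK2 by 1.17 (edgeR adjusted p = 0.0269) and LIMS1 by 1.02 (edgeR adjusted p = 0.0447). This count depended on single libraries, being 1 without co-cultured knockout replicate 1, 2 without replicate 2, 9 without replicate 3 and 2 without lone knockout replicate 1 or 2. The count over all genes moved with it. It was 536 of 17118, 819 of 17136 and 5680 of 17024 without those co-cultured libraries in turn. Without lone knockout replicate 1 or 2 it was 603 of 17224 and 654 of 17316. Of 4 genes that hold integrins inactive, 2 rose and 1 fell in lone knockouts, with DOK1 lower by 2.37 and ITGB1BP1 and FLNA higher by 1.27 and 1.15 (largest edgeR adjusted p = 0.000594). Between co-cultured and lone knockouts edgeR and DESeq2 each called 0 of these 4, with 0 at an unadjusted p under 0.05. With GC offsets edgeR called 2 of them, and 4766 of all 16768 genes.

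Of 8 hemidesmosome and tetraspanin genes, 3 rose and 2 fell in lone knockouts, where 56.6% of all genes passed in either direction. For co-culture of knockouts that share was 11.4%. PLEC (plectin, which ties ITGB4 to keratin) rose by 1.05 and DST by 1.35, and the tetraspanin CD9 fell by 1.18 (edgeR adjusted p = 0.00122, 0.00532 and 4.27e-06). With GC offsets the PLEC difference was 2.17. In co-culture 3 rose and 1 fell. CD82 rose by 1.11 and CD9 by 0.79 (edgeR adjusted p = 0.00427 and 0.00167), and DST fell by 1.46 (edgeR adjusted p = 0.0206), a call that was lost with library size scaling alone (edgeR adjusted p = 0.0566). Among 8 genes that move integrins through the cell, 1 rose and 3 fell in lone knockouts, again beside 56.6% of all genes. RAB25, which recycles ITGA5 and ITGB1, was at 113 CPM in lone controls and 0.0473 CPM in lone knockouts. CLIC3 fell by 1.91 and RAB11A rose by 0.68 (edgeR adjusted p = 0.000429 and 0.00410), and with GC offsets neither was called. RAB25 and EPCAM were thus both near 0 in the knockouts and high in the controls.

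Over the 12 libraries, the member most like ITGAV in log2 CPM was ITGB1 (Pearson r = 0.975), and ITGB6 was next to ITGAV (0.925). ITGA2 and ITGA6 had an r of 0.950, ITGA3 and ITGB5 of 0.927, and ITGB3 and ITGA3 of 0.894. ITGA5 and ITGB4 were less like any other member, with their best value, 0.577, to each other. Of all genes, ITGB3 was most like ANXA4 (0.992) and ADM (0.990), ITGAV most like ASPH and CCDC93 (both 0.995), and ITGB1 most like BMAL2 (0.991). These values describe the 12 libraries, which share groups and the GC trend given above.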

How the data were processed

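The authors deposited raw counts in 1 table, with whole reads summed for each Ensembl gene. Per the submitters' processing notes, which give no role or order, the tools were FastQC, STAR 2.7.9a, featureCounts, R 4.2.1 and DESeq2 1.36.0 and the build GRCh38 (hg38); annotation release and strand setting are not given in the sources used here, so antisense and overlapping genes cannot be separated. Here edgeR 4.0.16 (R 4.3.3) was run on them: filterByExpr on the 4 groups, TMM, 4 group means over 12 libraries, the robust quasi-likelihood F-test and Benjamini-Hochberg adjustment over 16768 genes, called under 0.05. Ratios were tested by exact permutation, two-sided. Alternatives were other scalings, DESeq2 1.42.0, no filter, a replicate block, GC offsets (GC from GENCODE 29, known for 98.4% of genes tested), only the groups compared, and each library left out. The scripts were tested on simulated data. Named genes are the 10 members, the up to 3 called genes of each list with the largest change and at least 5 CPM, and the genes most like each member. The members and the 6 lists (90 genes, 83 tested) were chosen with earlier results of these data known, and 1 further list gene is not reported here. Intervals cover counting error only. In the shallowest library, with 14921371 counts, genes with few counts such as ITGB6 are least precise.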

Additional observations from a re-analysis of the deposited data

Results flagged for a closer look

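The co-culture difference in knockouts departed from that in labelled controls, by the interaction test in edgeR, for 6 list genes. Of all genes tested 1.80% were called by it. The matrix gene FBN1 (-1.75, SE 0.38, adjusted p = 0.0353) and the actin linkers TNS1 (-0.91, SE 0.20, adjusted p = 0.0406) and VCL (-0.96, SE 0.22, adjusted p = 0.0455) shifted lower in knockouts than in controls. The laminin chain LAMB3 (1.64, SE 0.23, adjusted p = 0.00324), the leukocyte integrin chain ITGAX (1.63, SE 0.37, adjusted p = 0.0462) and the tetraspanin CD82 (1.27, SE 0.28, adjusted p = 0.0402) shifted higher.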

How the results depend on the processing

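Same-numbered libraries of compared groups correlated from -0.54 to 0.49 in their deviations, so the replicate numbers were not taken to pair the libraries. Between lone knockouts and lone controls the values were 0.49, -0.024 and 0.38 for replicates 1, 2 and 3, so a pairing there remains possible. With the replicate block, 9067 genes were called between lone knockout and lone control, 1080 between co-cultured and lone knockout, 7781 between the co-cultures, 0 between the controls and 179 in the interaction. Against 1907 genes called between co-cultured and lone knockout, DESeq2 called 3238, no filter 3340, GC offsets 4766, block with GC offsets 4049, only the groups compared 664, and omission of 1 library 536 to 5680. Members called there were 5 with DESeq2, 5 with no filter, 6 with GC offsets and with block and GC offsets, and 1 to 8 with a library left out. Against 301 interaction genes, DESeq2 called 890, no filter 1342, GC offsets 1411, block with GC offsets 845 and library omission 119 to 3623; members called were 1 with RLE, 1 with library size alone, 2 with DESeq2, 3 with no filter, 3 with GC offsets, 2 with block and GC offsets, and 0 to 7 with a library left out. Between the controls, no filter called 2 genes. The share of higher calls was 69.6% with library size alone and 71.5% with only the groups compared, against 52.5%, for co-culture of knockouts, and 49.7% with GC offsets against 84.1% in the interaction. Library size alone moved the median of all genes from 0.09 to 0.24 between lone knockout and control.

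Directions turned as follows (log2), and the cause was not tested. ITGB4 between lone knockout and control was 0.0054 with GC offsets and 0.0050 with the block too; in co-culture of knockouts 0.00019 with no filter and -0.24 to 0.0050 with a library left out; in the interaction -0.35 with GC offsets, -0.35 with the block too and -0.018 to 0.29. Between the co-cultures ITGA5 was 0.028 with RLE, 0.019 with library size alone, 0.026 with DESeq2, 0.087 with no filter, 0.022 with GC offsets, 0.023 with the block too, 0.041 with only the groups compared and -0.15 to 0.092; ITGA6 was -0.085 with GC offsets, -0.091 with the block too and -0.54 to 0.30; ITGA2 was -0.31 to 0.84. Between the controls ITGA3 was 0.0014 with library size alone, 0.11 with GC offsets, 0.11 with the block too and -0.20 to 0.067; ITGA5 was 0.023 with library size alone and -0.15 to 0.078; ITGA6 was -0.021 with GC offsets, -0.020 with the block too and -0.18 to 0.31. With a library left out, ITGA2 was -0.27 to 0.24, ITGAV -0.20 to 0.57, ITGB1 -0.10 to 0.54 and ITGB6 -0.69 to 0.99 there. Ratios between the controls ran from -0.71 to 0.034 (ITGB4/ITGA6), -0.54 to 1.12 (ITGB6/ITGB5), -0.66 to 0.094 (ITGB3/ITGB5), -0.15 to 0.00077 (ITGAV/ITGB1), -0.74 to 0.11 (ITGA3/ITGB1) and -0.70 to 0.13 (ITGA5/ITGB1), and ITGA3/ITGB1 between the co-cultures from -0.32 to 0.87. None of these values was called. Of 749 member values under alternatives, 630 kept direction and side of the threshold, 33 lost a call, 46 gained one and 40 turned sign. ITGB6 in the controls is limited by depth.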
